A study of Mus musculus with 6 samples.

Results

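C-type lectin receptors are membrane proteins of myeloid cells whose lectin-like domain binds sugars and lipids of microbes or molecules set free by dying cells. The genes described are 10 myeloid members of this family (Clec4a1, Clec4a2, Clec4a3, Clec4d, Clec4e, Clec4n, Clec5a, Clec7a, Clec10a and Clec12a), taken by symbol from the 46603 genes of the deposited count table. All 10 were found once each, and all 10 passed the filter on low counts that left 15440 genes for testing. Transcripts were measured by RNA-Seq in CD11B+ cells, which carry the integrin alpha M chain of monocytes, macrophages, granulocytes and NK cells, after isolation from whole kidneys with antibody-coated magnetic beads. Of 6 libraries, 3 have titles that begin with DNRAR and come from animals with the genotype PEPCK CRE+. They are called PTEC DN RAR here. The other 3 have titles that begin with DN Cont, come from PEPCK CRE- animals and are called Cre- control. Animals of both groups carried the allele Rosa26-LSL-RARaT403X, which encodes a truncated, dominant negative retinoic acid receptor and is homozygous by the study's account of PTEC DN RAR mice. All were males of 10 to 12 weeks in which both renal pedicles had been clamped for 28 minutes (bilateral IRI-AKI), and kidneys were taken on day 3. PEPCK-Cre switches the allele on in proximal tubular epithelial cells (PTECs), so the receptor was blocked in the tubule and not, by design, in the CD11B+ cells whose RNA was read. Libraries of uninjured kidneys were not analysed here. The labels do not say that each library came from a separate animal, so p values measure only the spread between these libraries, which may be technical.

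Most of these receptors either activate or restrain the cell. The receptors named Mincle (Clec4e), MCL (Clec4d), Dectin-2 (Clec4n), MDL-1 (Clec5a) and Dectin-1 (Clec7a) activate the kinase Syk, the first 3 through the adaptor FcRγ (Fcer1g), MDL-1 through DAP12 (Tyrobp) and Dectin-1 through its own tail. Syk then acts through the adaptor Card9 to switch on cytokine and chemokine genes. DCIR (Clec4a2) and MICL (Clec12a) carry inhibitory tails that recruit phosphatases such as SHP-1 (Ptpn6). Clec4a1 and Clec4a3 encode relatives of DCIR, and Clec10a encodes MGL1, which binds galactose and N-acetylgalactosamine.

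Depth was from 29318041 to 46517005 counts over genes per library. Before TMM scaling, 3 reads are worth between 0.0645 and 0.102 CPM (counts per 1000000 counts) at these depths. All other CPM values are after TMM scaling of the library sizes. The 10 receptors were read with at least 1037 counts in every library, so depth limited none of them. Rara, the gene from which the dominant negative receptor derives, measured 45.4, 35.3 and 45.1 CPM in Cre- controls and 30.8, 31.5 and 37.6 CPM in PTEC DN RAR libraries (adjusted p = 0.0628 by edgeR), and the counts hold no separate entry for the transgene, so this gene does not check the labels. The defining gene of the sort, Itgam, was present in every library at 980 to 1995 CPM, but had a log2 fold change of -0.64 in PTEC DN RAR libraries (edgeR adjusted p = 0.00818). Ptprc and Itgb2, which all leukocytes carry, had log2 fold changes of -0.11 and -0.07 (adjusted p = 0.534 and 0.703 by edgeR). Transcripts of proximal tubule were higher in PTEC DN RAR libraries for 11 of 11 marker genes, with a sum of 495 to 655 CPM in Cre- controls and 1936 to 2926 CPM in PTEC DN RAR libraries, and 6 of 6 endothelium markers were higher too. Mitochondrial transcripts took 5.03% to 8.77% of counts in Cre- controls and 10.4% to 12.1% in PTEC DN RAR libraries. In such bulk samples fewer cells of a type and less RNA per cell cannot be told apart.

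Clec4d and Clec4n fell in PTEC DN RAR libraries, Clec4d 3.80-fold and Clec4n 2.56-fold. The other 8 receptors did not pass in edgeR. By the quasi-likelihood test of edgeR, with p values adjusted over all 15440 genes after Benjamini and Hochberg and a threshold of 0.05, 2 of 10 receptors were called lower and 0 higher. At an unadjusted p under 0.05 edgeR had 6 lower and 0 higher, against 22% and 28.1% of all genes tested. Across all genes tested, edgeR called 17.1% lower and 23.6% higher (40.6% in either direction), so with this test the share of receptors called lower was near the background. DESeq2 called 6 of 10 receptors lower, against 19.2% of the genes to which it gave an adjusted p, and limma-voom 2 of 10, against 16.8%. Neither called a receptor higher, so how the receptors compare with the background depends on the tool. Among all genes, 2.14% were called lower with a log2 fold change of -1 or less, and Clec4d and Clec4n were the 2 receptors past that size. The median log2 fold change was -0.34 over the 10 receptors and 0.04 over all genes tested.

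**Figure D1:**
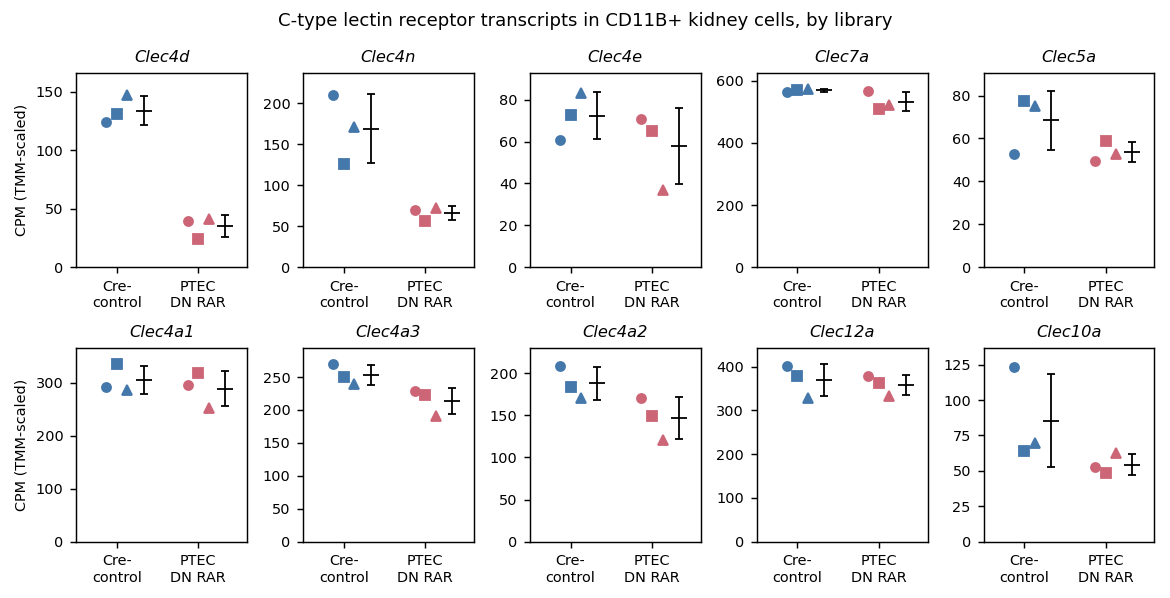
CPM (y axis, linear from 0) of each of the 10 receptors in the 3 Cre- control libraries (blue) and the 3 PTEC DN RAR libraries (red), with circle, square and triangle for replicates 1, 2 and 3 and a black bar for mean ± SD. Clec4d and Clec4n are the panels with a wide gap between genotypes, whereas Clec7a stays between 510 and 574 CPM in all 6 libraries.

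Clec4d encodes MCL, which binds mycobacterial glycolipid and helps to bring Mincle to the cell surface. It lies on chromosome 6 of GRCm38 from 123262111 to 123275265 (ENSMUSG00000030144). Cre- controls measured 124, 131 and 147 CPM and PTEC DN RAR libraries 39.9, 24.4 and 41.6 CPM. The ranges of the genotypes were far apart, with PTEC DN RAR replicate 2 the lowest of the 6. The means were 134 ± 12.1 and 35.3 ± 9.43 CPM (SD, n = 3 each). This is a log2 fold change of -1.92 (standard error, SE, 0.19, 95% interval -2.35 to -1.50, adjusted p = 0.000305 by edgeR), or 3.80-fold lower. It passed under all 14 alternatives, with log2 fold changes from -2.10 to -1.69.

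Clec4n encodes Dectin-2, a receptor for mannose-rich fungal polysaccharide. It is the upstream neighbour of Clec4d (chromosome 6 from 123229843 to 123247021, ENSMUSG00000023349). Cre- controls measured 210, 126 and 171 CPM and PTEC DN RAR libraries 69.8, 56.7 and 71.7 CPM. The groups did not overlap, although the Cre- controls were themselves spread over a wide range, with replicate 1 highest. The means were 169 ± 42.1 and 66.1 ± 8.14 CPM (SD, n = 3 each). This is a log2 fold change of -1.36 (SE 0.18, 95% interval -1.76 to -0.95, adjusted p = 0.000892 by edgeR), or 2.56-fold lower. It too passed under all 14 alternatives, with log2 fold changes from -1.57 to -1.12.

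Clec4e encodes Mincle, the receptor for the spliceosome protein SAP130 of dead cells and for mycobacterial cord factor, and is the downstream neighbour of Clec4d on the opposite strand (chromosome 6 from 123281789 to 123289870, ENSMUSG00000030142). Cre- controls measured 60.9, 72.5 and 83.2 CPM and PTEC DN RAR libraries 70.8, 65.2 and 37.1 CPM. The genotypes overlapped, and PTEC DN RAR replicate 3 stood below the other 5 libraries. The log2 fold change was -0.32 (SE 0.22, 95% interval -0.83 to 0.18, adjusted p = 0.274 by edgeR), so a fall of up to 0.83 on the log2 scale lies within the interval. With each library left out in turn, its log2 fold change lay between -0.50 (without PTEC DN RAR replicate 1, adjusted p = 0.142 by edgeR) and -0.13 (without PTEC DN RAR replicate 3, adjusted p = 0.496 by edgeR), and no alternative called it.

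The windows around the start sites of Clec4d and Clec4e, from 250 bases before to 50 bases after the start (RefSeq, GRCm38.p6, each read along its own gene), are shown because these neighbours differ in their log2 fold changes. Capitals mark the PU.1 box GAGGAA, named for an ETS factor of myeloid cells, and the C/EBP motif TTNNGCAA, each searched on both strands.
Clec4d at chr6:123261857-123262156, plus strand: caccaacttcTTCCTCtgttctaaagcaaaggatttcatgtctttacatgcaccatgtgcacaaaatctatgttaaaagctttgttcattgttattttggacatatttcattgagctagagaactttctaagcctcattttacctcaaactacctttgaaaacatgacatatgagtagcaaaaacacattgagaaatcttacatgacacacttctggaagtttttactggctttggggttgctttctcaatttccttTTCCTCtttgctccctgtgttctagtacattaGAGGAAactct
Clec4e at chr6:123289822-123290121, minus strand: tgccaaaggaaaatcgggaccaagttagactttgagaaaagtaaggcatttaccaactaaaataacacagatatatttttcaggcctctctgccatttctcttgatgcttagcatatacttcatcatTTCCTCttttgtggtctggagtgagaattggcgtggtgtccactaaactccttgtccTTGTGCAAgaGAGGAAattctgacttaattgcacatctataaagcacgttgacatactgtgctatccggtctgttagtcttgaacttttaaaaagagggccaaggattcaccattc
The Clec4d window holds 3 PU.1 boxes and no C/EBP match. The Clec4e window holds 2 PU.1 boxes and 1 C/EBP match, the latter beside a PU.1 box and not overlapping it. Of the 8 receptors with an entry in the promoter table (Clec4n and Clec10a have none), 7 (not Clec4a2) hold a PU.1 box in at least 1 of their windows, against 28.3% of all 32851 windows. The C/EBP motif was found for Clec4e and Clec12a, against 10.8% of all windows, and the AP-1 motif TGANTCA for Clec12a and Clec4a2, against 7.81%. The receptors are counted by gene, of which Clec4a3 and Clec7a have 2 windows each, whereas the shares of all windows are by window. These measures are unlike. Such matches describe letters in these windows and show no binding.

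The difference between neighbours was also read within each library as a ratio of CPM per kilobase of exon, which no scaling of libraries can move. These ratios were chosen after the values had been seen. The ratio of Clec4d to Clec4e was 6.32, 5.60 and 5.50 in Cre- controls, against 1.75, 1.16 and 3.48 in PTEC DN RAR libraries. The genotypes did not overlap, and the difference was -1.59 on the log2 scale (exact permutation p = 0.1, two-sided, which is the lowest p that 3 libraries against 3 can reach). The ratio of Clec4n to Clec4e was 12.1, 6.08 and 7.18 in Cre- controls, against 3.44, 3.05 and 6.77 in PTEC DN RAR libraries. Here PTEC DN RAR replicate 3, the library with the lowest Clec4e, reached into the range of the Cre- controls (difference -0.96 on the log2 scale, exact permutation p = 0.2). The ratio of Clec4d to Clec7a was 0.362, 0.378 and 0.423 in Cre- controls, against 0.116, 0.0791 and 0.131 in PTEC DN RAR libraries, without overlap (difference -1.86, exact permutation p = 0.1). The ratio of Clec4d to Clec4n was 0.523, 0.921 and 0.766 in Cre- controls, against 0.507, 0.382 and 0.514 in PTEC DN RAR libraries, with a narrow gap between Cre- control replicate 1 and PTEC DN RAR replicate 3 (difference -0.63, exact permutation p = 0.1).

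**Figure D2:**
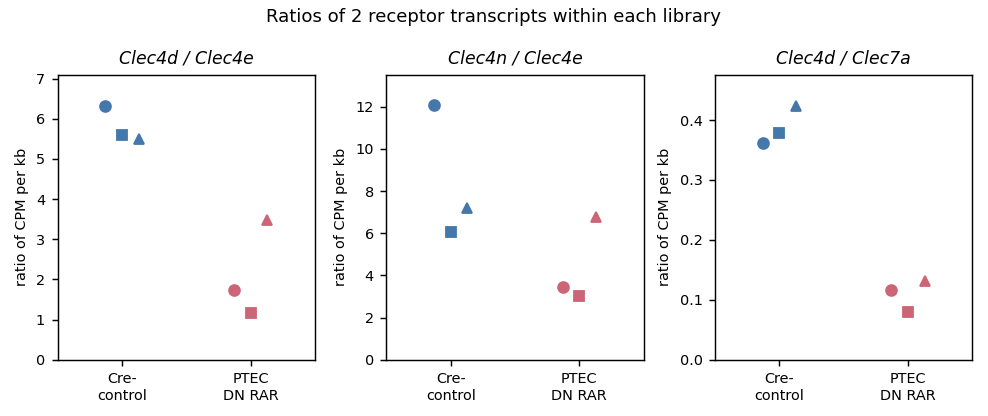
Ratio of CPM per kilobase (y axes, linear from 0) of Clec4d to Clec4e, Clec4n to Clec4e and Clec4d to Clec7a in each library, with colours and symbols as in the plot of CPM by library. The PTEC DN RAR points lie below all Cre- controls in the left and right panels, and in the middle panel PTEC DN RAR replicate 3 (6.77) lies above Cre- control replicate 2 (6.08).

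Clec7a and Clec5a, the remaining activating receptors, did not pass in edgeR. Clec7a encodes Dectin-1, the receptor for fungal β-glucan (chromosome 6 from 129461591 to 129472779, ENSMUSG00000079293). Cre- controls measured 565, 570 and 574 CPM and PTEC DN RAR libraries 567, 510 and 522 CPM. One PTEC DN RAR library lay among the Cre- controls and the other 2 below them. The log2 fold change was -0.10 (95% interval -0.29 to 0.10, adjusted p = 0.402 by edgeR), so the interval holds no fall of more than 0.29 under this scaling. Clec5a encodes MDL-1, which is known to bind dengue virus and to act in neutrophils and monocytes (chromosome 6 from 40574894 to 40585821, ENSMUSG00000029915). Cre- controls measured 52.8, 77.3 and 75.2 CPM and PTEC DN RAR libraries 49.6, 58.9 and 52.9 CPM. Cre- control replicate 1 lay within the PTEC DN RAR range. Its log2 fold change came to -0.35 (edgeR adjusted p = 0.0897, SE 0.15), and without Cre- control replicate 1 it was -0.51 (adjusted p = 0.00519 by edgeR). DESeq2 called Clec5a (adjusted p = 0.0461), as did edgeR without the filter on low counts (adjusted p = 0.0471), and limma-voom did not (adjusted p = 0.115).

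Of the DCIR group, Clec4a1 was called by no tool, and Clec4a2 and Clec4a3 were called by DESeq2 (adjusted p = 0.0157 and 0.0238) and not by the main edgeR test or limma-voom. With DESeq2 size factors, edgeR called both (adjusted p = 0.0345 and 0.0373), and without the filter on low counts it called Clec4a2 (adjusted p = 0.0193). Clec4a2, which encodes the inhibitory DCIR (chromosome 6 from 123106428 to 123143999, ENSMUSG00000030148), measured 209, 184 and 171 CPM in Cre- controls and 170, 149 and 121 CPM in PTEC DN RAR libraries. The groups only just failed to overlap, at 170.7 against 170.3 CPM. Its log2 fold change came to -0.36 (edgeR adjusted p = 0.0619, SE 0.13), and without PTEC DN RAR replicate 1 it was -0.48 (adjusted p = 0.0306 by edgeR). Clec4a3 (chromosome 6 from 122952515 to 122969875, ENSMUSG00000043832) measured 269, 250 and 239 CPM in Cre- controls and 228, 222 and 191 CPM in PTEC DN RAR libraries. It did not overlap between genotypes, at a log2 fold change of -0.24 (edgeR adjusted p = 0.0807, SE 0.10). Clec4a1 (chromosome 6 from 122921848 to 122934619, ENSMUSG00000049037) measured 292, 335 and 286 CPM in Cre- controls and 295, 317 and 253 CPM in PTEC DN RAR libraries. These values overlapped, with a log2 fold change of -0.08 (95% interval -0.33 to 0.17, adjusted p = 0.597 by edgeR).

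Clec12a encodes the inhibitory MICL, a receptor for uric acid crystals that dead cells release (chromosome 6 from 129342691 to 129365303, ENSMUSG00000053063). Cre- controls measured 401, 379 and 328 CPM and PTEC DN RAR libraries 378, 363 and 332 CPM. All 3 PTEC DN RAR libraries lay within the Cre- control range, and the log2 fold change was -0.05 (95% interval -0.28 to 0.19, adjusted p = 0.74 by edgeR). Clec10a, the galactose receptor often used as a marker of alternatively activated macrophages, is the only one of the 10 outside chromosome 6 (chromosome 11 from 70156197 to 70170834, ENSMUSG00000000318). Cre- controls measured 123, 63.8 and 69.6 CPM and PTEC DN RAR libraries 52.6, 48.3 and 62.4 CPM. Cre- control replicate 1 stood far above the other 5 libraries, while the other 2 Cre- controls were close to PTEC DN RAR replicate 3. The log2 fold change was -0.65 (SE 0.23, 95% interval -1.18 to -0.12, adjusted p = 0.0518 by edgeR), and without Cre- control replicate 1 it was -0.30 (adjusted p = 0.083 by edgeR). It passed without Cre- control replicate 2 (-0.87, adjusted p = 0.0214), Cre- control replicate 3 (-0.83, adjusted p = 0.0436) or PTEC DN RAR replicate 3 (-0.81, edgeR adjusted p = 0.0483). DESeq2 called Clec10a (adjusted p = 0.00932) and limma-voom did not (adjusted p = 0.0662). The interval is for the single gene and leaves out 0, whereas the adjusted p over all genes misses the threshold. Transcripts of Clec10a share 8.49% of their 50-base words with Mgl2, the gene for the sister receptor MGL2, and Clec4a2 shares 6.83% with other genes. Reads that align equally well elsewhere are left out of counts of uniquely aligned reads. How many reads of these stretches were lost was not tested. Clec4d, Clec4e, Clec4a1, Clec4a3, Clec5a and Clec7a share none, and Clec4n and Clec12a under 1%.

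Of the 10 receptors, 5 (Clec4d, Clec4n, Clec10a, Clec4a2 and Clec4a3) had no overlap between genotypes in TMM-scaled CPM and were lower in PTEC DN RAR libraries, against 24.2% of all genes tested, and none was higher without overlap, against 29.2%. All 10 log2 fold changes were below 0 with TMM, against 47.3% of all genes, but this sign was shared by leukocyte genes and depends on the scaling. Of 26 pan-leukocyte genes, 25 were below 0 with TMM, with a median of -0.22 on the log2 scale, and 9 were called lower by edgeR. With scaling on these genes in place of TMM, the median over all genes went from 0.04 to 0.26 on the log2 scale, and Clec7a, Clec4a1 and Clec12a moved above 0, to 0.13, 0.15 and 0.18 (adjusted p = 0.29, 0.307 and 0.168 by edgeR). With that scaling the share of all genes called lower was 4.48% and called higher 33.5%. Clec4d and Clec4n remained called under it, at -1.69 and -1.12 (adjusted p = 0.000278 and 0.00128 by edgeR). Among PTEC DN RAR libraries, replicate 1 was lowest of its group in 1 receptor, replicate 2 in 4 and replicate 3 in 5.

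**Figure D3:**
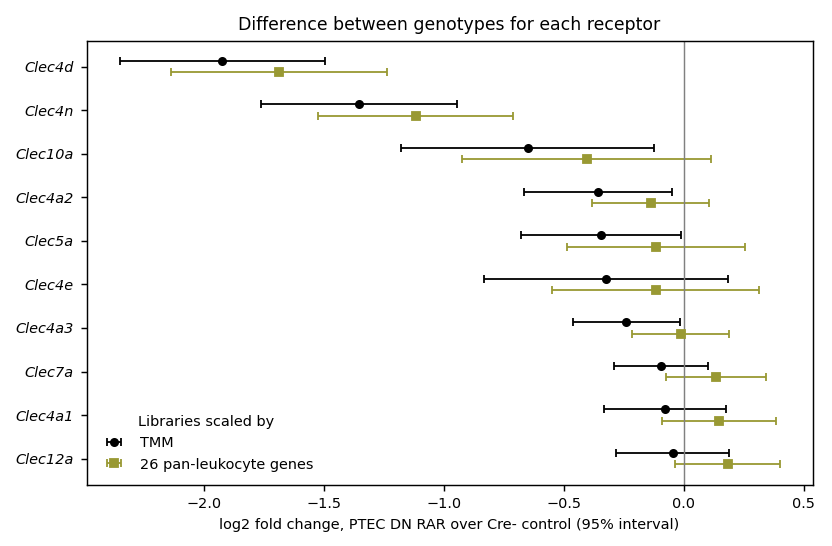
Log2 fold change of PTEC DN RAR over Cre- control (x axis, below 0 is lower in PTEC DN RAR) for each receptor, with 95% intervals for single genes from edgeR, after TMM scaling (black circles) or scaling on 26 pan-leukocyte genes (olive squares). Clec4d and Clec4n lie below -1 under both, and the second scaling shifts all points to the right, Clec7a, Clec4a1 and Clec12a past 0.

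Levels can be compared between receptors only per length of transcript. In Cre- controls, Clec7a stood at 216 ± 1.71 CPM per kilobase of annotated exon (SD, n = 3), Clec4a1 at 195 ± 17.0 and Clec4a3 at 190 ± 11.5, and neighbours within these 3 overlapped. Clec4n followed at 119 ± 29.6 and Clec4d at 83.8 ± 7.57 CPM per kilobase, which overlapped with each other. Below them were Clec12a at 66.8 ± 6.75 and Clec4a2 at 64.2 ± 6.65, which overlapped, then Clec10a at 29.5 ± 11.3, and last Clec5a at 17.8 ± 3.54 and Clec4e at 14.5 ± 2.25, which overlapped. In PTEC DN RAR libraries Clec7a, Clec4a1 and Clec4a3 again came first, at 202 ± 11.4, 185 ± 21.0 and 161 ± 15.2 CPM per kilobase. Clec4n stood sixth at 46.5 ± 5.74, below Clec12a at 64.7 ± 4.19 and overlapping with Clec4a2 at 50.1 ± 8.50. Clec4d stood seventh at 22.1 ± 5.90 and overlapped with Clec10a at 18.8. Clec5a and Clec4e had the lowest means per length in both genotypes, and they overlapped with each other in both. Lengths are unions of all annotated exons, which understate the level of a gene whose long isoforms are not used.

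Of the 10 receptor genes, 6 lie in 1 cluster of 9 C-type lectin genes that spans 368 kilobases on chromosome 6 of GRCm38. Along the chromosome the order is Clec4a1, Clec4a3, Clec4a4, Clec4b1, Clec4a2, Clec4b2, Clec4n, Clec4d and Clec4e. The 2 genes that fell are next to each other, between Clec4b2, which was too low to test, and Clec4e, which was not called. Clec4a4, a close copy of Clec4a2, measured from 0.502 to 1.31 CPM over the 6 libraries, and Clec4b2 from 0 to 0.118 CPM, which for the first is 21 to 52 reads. Clec4b1 measured 29.6, 29.2 and 20.3 CPM in Cre- controls and 46.3, 54.6 and 24.8 CPM in PTEC DN RAR libraries. With TMM it was the only gene tested in the cluster with a log2 fold change above 0, at 0.67, and the genotypes overlapped (edgeR adjusted p = 0.0766). It was called higher in 5 of 14 alternatives, among them DESeq2 (adjusted p = 0.0405), edgeR with pan-leukocyte scaling (0.88, adjusted p = 0.0149), edgeR without the filter (adjusted p = 0.0278) and edgeR without PTEC DN RAR replicate 3 (0.89, adjusted p = 0.0077).

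**Figure D4:**
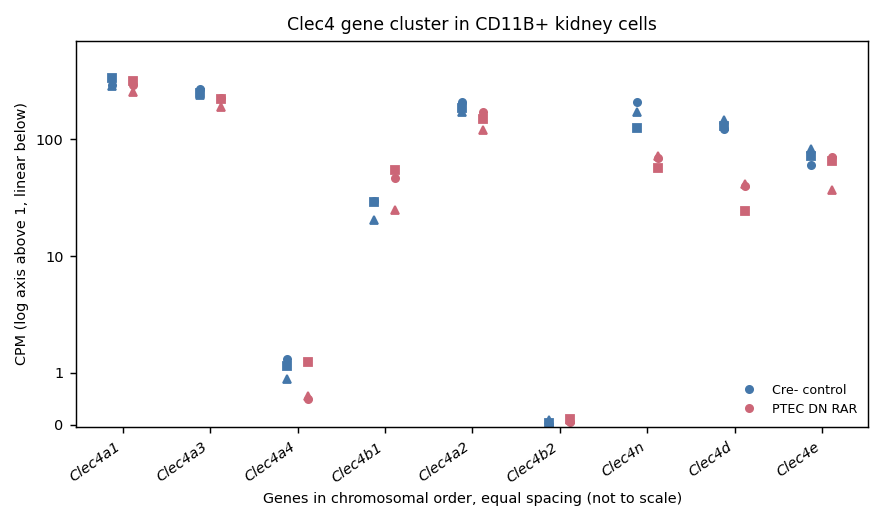
CPM (y axis, logarithmic above 1 and linear below) of the 9 genes of the Clec4 cluster, placed in their order on the chromosome at equal spacing, in Cre- controls (blue) and PTEC DN RAR libraries (red), with symbols for replicates as in the plot of CPM by library. The genotypes are clearly apart at Clec4n and Clec4d and interleave at Clec4e and Clec4a1, while Clec4a4 lies at or below 1.31 CPM and Clec4b2 at or below 0.118 CPM.

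The adaptors through which these receptors signal did not pass in edgeR. Fcer1g, the FcRγ chain that carries Clec4d, Clec4e and Clec4n, measured 920, 795 and 787 CPM in Cre- controls and 880, 869 and 698 CPM in PTEC DN RAR libraries (log2 fold change -0.03, adjusted p = 0.854 by edgeR, turning to 0.19 with pan-leukocyte scaling). Tyrobp, the adaptor of Clec5a, had a log2 fold change of -0.26 (adjusted p = 0.184), Card9 of -0.18 (adjusted p = 0.166) and the phosphatase gene Ptpn6 of -0.03 (adjusted p = 0.839), all by edgeR. Of 21 adaptor and signalling genes, 5 were lower and 1 was higher by edgeR, against 17.1% and 23.6% of all genes tested, so the share called lower was near the background. Those lower were Syk at -0.26, the inositol phosphatase gene Inpp5d at -0.30, the Src family kinase gene Lyn at -0.32, the exchange factor gene Vav3 at -0.33 and the ubiquitin ligase gene Traf6 at -0.34, with adjusted p from 0.0281 to 0.0437 by edgeR. Src was higher at 0.60 (adjusted p = 0.0398 by edgeR). These counts moved with the scaling and with single libraries. With pan-leukocyte scaling 0 were lower by edgeR (0 also at an unadjusted p under 0.05) and 2 higher. Without Cre- control replicate 3, 0 were lower (5 at an unadjusted p under 0.05), and without Cre- control replicate 2 or PTEC DN RAR replicates 1, 2 or 3 there were 2, 1, 1 and 3.

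Most genes known to be induced through Syk and Card9 were lower. Of 16 listed, 15 were tested (Csf2 was not) and 12 were called lower and 0 higher by edgeR, against 17.1% and 23.6% of all genes, with a median log2 fold change of -0.91. At an unadjusted p under 0.05 1 was higher by edgeR, and DESeq2 and limma-voom called 0 higher. The lowest adjusted p values were those of the chemokine genes Ccl2 (-1.99), Cxcl2 (-1.60) and Ccl3 (-0.91) and of the inflammasome gene Nlrp3 (-0.90 on the log2 scale). Many other receptors induce these genes, and several belong to gene sets in which earlier results of these libraries were already known, so the count is no independent evidence about C-type lectin receptors. Il12b was at 1.25 and Egr3 at 0.51 on the log2 scale, neither past the threshold (adjusted p = 0.0661 and 0.16 by edgeR).

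Of 39 other C-type lectin genes listed, 29 were tested, of which 2 were lower and 8 higher by edgeR, with a median log2 fold change of 0.11. Against 17.1% of all genes called lower and 23.6% called higher, the share higher was near the background and the share lower was under it. Those lower were Mrc1, the gene for the macrophage mannose receptor CD206, with a log2 fold change of -0.71, and Clec2g, a lectin-like gene, with one of -1.92 at only 1.96 ± 0.496 and 0.514 ± 0.332 CPM (SD, n = 3 each). The 4 called higher with the lowest adjusted p were Clec14a, an endothelial gene, at 1.65, Clec2h at 1.78, Clec9a, the receptor of cross-presenting dendritic cells for dead-cell actin, at 1.32, and Ly75, the dendritic cell receptor DEC-205, at 0.83 on the log2 scale. Clec9a rose from 10.3 ± 3.48 to 25.6 ± 8.36 CPM (SD, n = 3 each, adjusted p = 0.00684 by edgeR). Mgl2, the neighbour of Clec10a, measured 139, 194 and 197 CPM in Cre- controls and 126, 193 and 121 CPM in PTEC DN RAR libraries (log2 fold change -0.27, adjusted p = 0.314 by edgeR), and passed only without PTEC DN RAR replicate 2 (-0.52, adjusted p = 0.0402 by edgeR). Without Cre- control replicate 3 or without PTEC DN RAR replicate 1, 4 were higher, and without PTEC DN RAR replicate 2, 5 were lower and 5 higher. The 6 genes named as called passed in every alternative in which they were tested.

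Most markers of infiltrating monocytes, and some of neutrophils, were lower together with Clec4d and Clec4n, whereas those of resident macrophages and dendritic cells were not lower as lists. The counts that follow are by edgeR and stand against 17.1% of all genes called lower and 23.6% called higher. Of 8 markers of infiltrating monocytes, 7 were lower, with a sum of 3812 to 4113 CPM in Cre- controls and 1611 to 1673 CPM in PTEC DN RAR libraries. Among them F13a1 was at -2.35 and Ccr2, the receptor for Ccl2, at -0.73 on the log2 scale. The remaining monocyte marker, Ly6c2, was not called (log2 fold change -0.90, adjusted p = 0.0824 by edgeR). Ly6c2 measured 65.2, 47.7 and 34.2 CPM in Cre- controls and 13.5, 24.0 and 41.5 CPM in PTEC DN RAR libraries, with overlap. Of 10 neutrophil markers, 5 were lower, with a sum of 471 to 849 CPM in Cre- controls and 299 to 426 CPM in PTEC DN RAR libraries. The defining neutrophil gene Ly6g was at most 1.55 CPM in any library. Of 8 resident macrophage markers, 1 was lower and 1 higher (median log2 fold change 0.17), with sums of 11065 to 12084 and 10627 to 13964 CPM, and of 9 dendritic cell markers, 1 was lower and 4 were higher (median 0.22), with sums of 365 to 394 and 354 to 374 CPM. With pan-leukocyte scaling, against 4.48% of all genes lower and 33.5% higher, 6 monocyte and 4 neutrophil markers were lower, 6 of 8 resident macrophage markers were higher, and 4 dendritic cell markers were higher. With TMM, 2 resident macrophage markers were higher without PTEC DN RAR replicate 3, and 2 dendritic cell markers were higher without Cre- control replicate 3. The part that the lower monocyte and neutrophil markers have in the lower Clec4d and Clec4n was not tested.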

How the data were processed

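PolyA RNA of CD11B+ kidney cells was sequenced. The authors deposited raw read counts per Ensembl gene, 1 column per library and with no column of another sample. The submitters' processing notes name STAR 2.5.0a, HTSeq 0.6.1 and GRCm38. Of alignments, 42.9% to 47.8% per library were not unique and were left out of the counts, which lowers genes with near-identical copies. Lines with no gene (ambiguous or no feature) were left out. Of 46612 gene lines, 9 repeats with equal counts were collapsed.

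Libraries were grouped by the genotype in the labels. Low counts were removed by filterByExpr, library sizes scaled by TMM, and genes compared with glmQLFit and glmQLFTest of edgeR 4.0.16 (R 4.3.3), with Benjamini-Hochberg adjustment and a threshold of 0.05. The standard error (SE) is the log2 fold change divided by the square root of F. The 14 alternatives were DESeq2 1.42.0, limma-voom (limma 3.58.1), 3 other scalings, 2 other filters, the replicate number as a block and each library left out in turn. Scripts were tested on simulated data. No 2 libraries of a genotype agreed within sampling noise (chi-square per degree of freedom at least 29.6). Gene models are GENCODE M21 and promoters RefSeq, both on GRCm38. All 10 receptors are named. From the other lists every gene is named when 5 or fewer passed, otherwise the 4 with the lowest adjusted p in each direction, with Fcer1g, Tyrobp, Syk, Card9, Ptpn6, Mrc1, Mgl2 and Rara always. Clec4b1, Clec4a4, Clec4b2, Il12b, Egr3 and single markers were added after their values were seen. Members and lists were chosen with earlier results of these data known. Protein sequences were not used here.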

Additional observations from a re-analysis of the deposited data

How the results depend on the processing

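The calls on Clec4d and Clec4n and their direction held under all 14 alternatives. The number of receptors called lower rose from 2 (17.1% of all genes) to 6 with DESeq2 (19.2% of genes with an adjusted p), to 5 with DESeq2 size factors in edgeR (20% of all genes) or without the low-count filter (10.8%), and to 4 without TMM (15.9%). With each library left out it was between 2 and 3 (11.7% to 17.7% of all genes). The genes added were Clec10a, Clec4a2, Clec4a3 and Clec5a, whose main adjusted p lay between 0.0518 and 0.0897. Replicate numbers in the titles gave no clear sign of pairing, though 3 libraries per genotype are too few to exclude it. Same-numbered libraries deviated from their group means with correlations of -0.015, 0.211 and 0.029. Not every library correlated best with its own number. With the replicate number as a block, 5 receptors were lower (16.9% of all genes), with Clec4a2, Clec4a3 and Clec5a added, and Clec4b1 was higher. With pan-leukocyte scaling, Clec4a1, Clec7a and Clec12a turned to 0.15, 0.13 and 0.18, the number of all genes called lower fell from 2636 to 692, adaptor and signalling genes were 0 lower and 2 higher, and 1 Card9 target gene was higher. With each library left out, Clec12a lay between -0.17 and 0.011, the latter without Cre- control replicate 1. Other C-type lectin genes called lower were 5 with DESeq2, 4 with DESeq2 size factors in edgeR or without the filter and 1 with at least 10 counts in every library. With each library left out, they were 2 to 5 lower and 4 to 9 higher. Adaptor and signalling genes called lower were 3 without TMM and 0 to 5 with a library left out, and those called higher were 0 with DESeq2 size factors and 0 to 1 with a library left out. Card9 target genes called higher were 0 to 1 with a library left out. Apart from the settings that drop libraries or change scaling, the cause was not tested. Depth did not limit any receptor, whereas 3 libraries per genotype leave intervals wide enough to hold moderate falls of Clec4e, Clec5a and Clec10a.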
